A study of Mus musculus with 2 samples.

Results

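Secreted Wnt modulators, R-spondins and the R-spondin receptor Lgr5 were followed through the cells of mouse uteri taken after doxorubicin with or without anti-Müllerian hormone. The 9 genes, Sfrp1, Sfrp2, Sfrp4, Dkk2, Dkk3, Rspo1, Rspo3, Notum and Lgr5, were chosen by symbol from the 32285 genes of the feature table, and 9 of the 9 had UMIs. The DOX plus AMH group received doxorubicin, an anthracycline that damages DNA, at 3 mg/kg and anti-Müllerian hormone at 0.75 mg/kg. The DOX group received doxorubicin alone at 3 mg/kg. Uteri were taken at 4 h, and since both groups carry doxorubicin, their values are not comparisons with untreated tissue. The series text gives 2 weekly doses and postnatal day 25 for its bulk RNA work, and whether the animals used here shared that schedule is not stated. Uteri of 5 animals were pooled per group into 1 droplet library, so there were no replicates and no difference was tested. The comparison asks how these transcripts differed in doxorubicin-exposed uteri when the hormone was given too.

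Wnt proteins are lipid-bearing ligands that bind Frizzled receptors together with the co-receptors Lrp5 and Lrp6, and their canonical branch stabilises beta-catenin, which acts through TCF and LEF factors. Secreted Frizzled-related proteins (Sfrp) can bind Wnt proteins outside the cell, Dickkopf proteins such as Dkk2 bind Lrp co-receptors, and Notum removes the lipid that Wnt proteins need. R-spondins bind Lgr4, Lgr5 and Lgr6 and hold back the ligases Znrf3 and Rnf43, which otherwise clear Frizzled receptors from the membrane. In the mouse uterus, Wnt signals between stroma and epithelium take part in forming glands.

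The libraries held 97887259 UMIs over 8083 barcodes in DOX plus AMH and 129530270 UMIs over 9258 barcodes in DOX. After filtering, 6745 DOX plus AMH cells and 7416 DOX cells were kept, with median depths of 10109 UMIs in DOX plus AMH and 13747 UMIs in DOX, and 13 kept barcodes occurred in both libraries. Of 29 clusters, 8 were stromal-like, with 3643 DOX plus AMH and 4895 DOX cells, and UMIs of 8 of 8 stromal markers were present. The libraries stood apart in some cells. Squamous epithelial-like cells numbered 485 in DOX plus AMH and 8 in DOX, dividing stromal-like cells of cluster 5 numbered 27 in DOX plus AMH and 255 in DOX, vascular cluster 28 had 0 cells in DOX plus AMH and 70 in DOX, and erythroid-like cells numbered 81 in DOX plus AMH and 6 in DOX. The 8 squamous markers summed to 53.7 CPM in DOX plus AMH stromal-like cells and 4.08 CPM in DOX stromal-like cells. CPM is a gene's UMIs scaled to a common total over the cells of a class, so it counts molecules and needs no length scaling. Log2 ratios set DOX plus AMH over DOX. Intervals are 95% and cover counting error only, not the spread between cells or animals.

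Sfrp2, Dkk2 and Rspo1 matched the RefSeq promoter table (build GRCm38.p6). Their 250 bases before the annotated start are shown because Sfrp2 and Dkk2 were both higher in DOX plus AMH in stromal-like clusters 2, 3 and 7, while Rspo1 was lower in mesothelial-like cells. Capitals mark matches, on either strand, to the TCF/LEF motif CTTTGAA and its forms that end in AT, TA or TT instead, to the GC-rich SMAD motif GGCGCC and to the TATA box TATAAA.
Sfrp2, chr3:83766071-83766320, plus strand: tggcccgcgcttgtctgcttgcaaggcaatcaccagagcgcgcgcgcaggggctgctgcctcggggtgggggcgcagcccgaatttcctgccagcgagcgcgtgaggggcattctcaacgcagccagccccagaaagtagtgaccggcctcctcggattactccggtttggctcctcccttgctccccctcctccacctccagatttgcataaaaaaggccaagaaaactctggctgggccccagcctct
Dkk2, chr3:132085042-132085291, plus strand: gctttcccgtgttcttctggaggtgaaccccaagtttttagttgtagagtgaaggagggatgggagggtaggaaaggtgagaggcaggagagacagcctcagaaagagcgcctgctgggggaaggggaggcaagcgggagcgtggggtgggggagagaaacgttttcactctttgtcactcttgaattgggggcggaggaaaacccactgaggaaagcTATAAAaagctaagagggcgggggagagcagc
Rspo1, chr4:124986180-124986429, plus strand: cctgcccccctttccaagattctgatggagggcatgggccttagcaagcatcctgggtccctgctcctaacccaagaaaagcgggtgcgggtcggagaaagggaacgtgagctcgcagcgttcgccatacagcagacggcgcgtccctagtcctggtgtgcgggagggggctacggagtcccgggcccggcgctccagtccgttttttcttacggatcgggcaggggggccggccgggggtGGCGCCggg
The Dkk2 window held TATAAA from -32 to -27 relative to the start, a motif found in 12.4% of 32851 windows of that length. The Rspo1 window held GGCGCC, a palindrome, from -9 to -4, and 9.59% of windows hold it. The TCF/LEF letters, present in 14.8% of windows, and the glucocorticoid receptor motif, present in 0.387%, were not in these 3.

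Across classes the members had different homes. Stromal-like cells gave 77.9% of Sfrp2 UMIs in DOX plus AMH and 86.6% in DOX. They gave 91.9% of Sfrp4 UMIs in DOX plus AMH and 94.2% in DOX, and 86.4% of Dkk2 UMIs in DOX plus AMH and 91.8% in DOX. Rspo3 was shared with muscle, Rspo1 with mesothelium, and Lgr5 lay in epithelium. Blood-derived cells (macrophage or monocyte-like, dendritic-like and lymphocyte-like), used as a gauge of free RNA, numbered 376 in DOX plus AMH and 493 in DOX. They read Sfrp2 at 14.7 CPM in DOX plus AMH and 6.26 CPM in DOX, and Rspo3 at 16.4 CPM in DOX plus AMH and 14.9 CPM in DOX. The other 7 members were at most 7.37 CPM there.

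**Figure D1:**
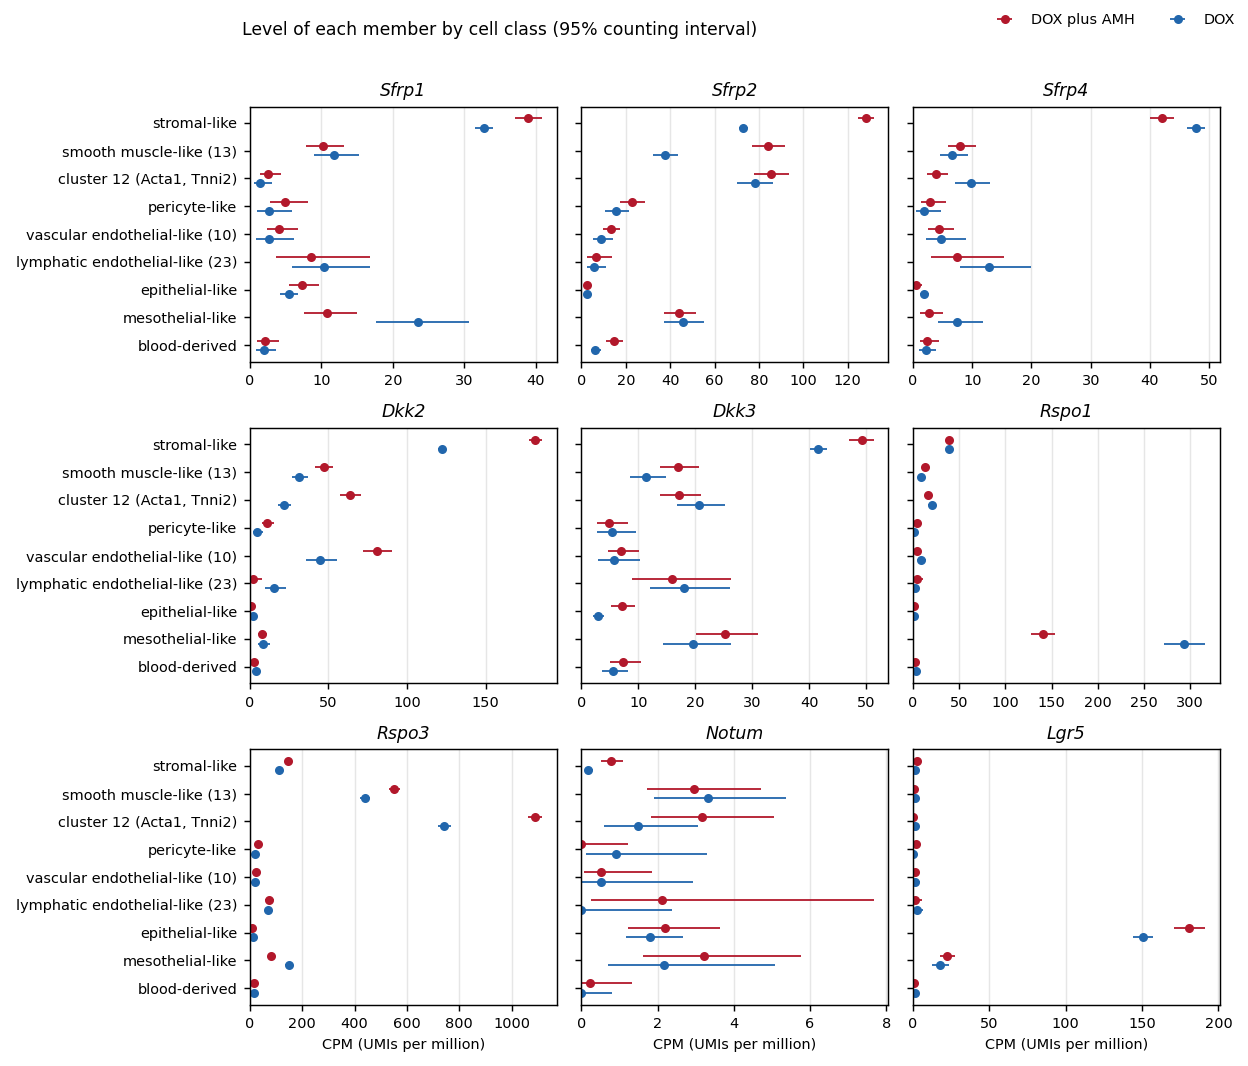
Level of each member (x axis, CPM) by cell class (y axis) in DOX plus AMH and DOX, with 95% counting intervals. Sfrp2 in stromal-like cells was 128 CPM in DOX plus AMH and 73.0 CPM in DOX, and Rspo1 in mesothelial-like cells was 141 CPM in DOX plus AMH and 293 CPM in DOX.

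In stromal-like cells, 3 of the 9 members reached a 1.5-fold higher level in DOX plus AMH and 0 a 1.5-fold lower one, beside 14.6% higher and 5.66% lower among the 18304 genes with 20 or more UMIs. These were Sfrp2, Notum and Lgr5, of which Notum and Lgr5 had few UMIs. The median log2 ratio of the 9 members was 0.42, beside 0.16 over those genes, and TMM scaling moved ratios of the class by -0.19.

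Sfrp2 (ENSMUSG00000027996, GRCm38 chr3:83766321-83774316, plus strand) encodes a secreted protein that can bind Wnt ligands. It stood at 128 CPM (125 to 132) in DOX plus AMH stromal-like cells and 73.0 CPM (71.1 to 75.0) in DOX ones (log2 ratio 0.81, 0.76 to 0.87). With every cell thinned to 2000 UMIs, 20.3% (19.0 to 21.7) of DOX plus AMH cells and 12.3% (11.4 to 13.3) of DOX cells had at least 1 Sfrp2 UMI, and 53 DOX plus AMH and 52 DOX cells were too shallow to enter. Without thinning the shares were 54.2% in DOX plus AMH and 49.6% in DOX. Blood-derived cells, at median depths of 8664 UMIs in DOX plus AMH and 7935 UMIs in DOX, had thinned shares of 1.77% in DOX plus AMH and 1.56% in DOX. Median depths of the stromal-like cells were 10201 UMIs in DOX plus AMH and 14833 UMIs in DOX. The thinned stromal-like intervals of the groups did not overlap.

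The Sfrp2 ratio was above 0 in 8 of the 8 stromal-like clusters. Cluster 7, led by Cxcl14 and A2m, had 210 CPM in DOX plus AMH and 114 CPM in DOX (log2 ratio 0.88), and cluster 2 (Aox3, Dio2) had 197 CPM in DOX plus AMH and 119 CPM in DOX (log2 ratio 0.73). These were the highest levels in both libraries. Cluster 3 (Fosb) had 157 CPM in DOX plus AMH and 109 CPM in DOX, and cluster 1 (Frmpd4, Slc26a7) had 111 CPM in DOX plus AMH and 72.1 CPM in DOX. Cluster 6 (Igfbp3) had 59.3 CPM in DOX plus AMH and 31.5 CPM in DOX. Cluster 15 (Cfd, Il6, Has1) had 49.4 CPM in DOX plus AMH and 15.4 CPM in DOX (log2 ratio 1.68, 1.29 to 2.08). Cluster 16 (Col14a1, Prlr) was lowest, with 13.7 CPM in DOX plus AMH and 6.01 CPM in DOX, values at the blood-derived level of each library.

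Sfrp2 was also higher in smooth muscle-like cluster 13 (Actg2, Scx, Cnn1), at 84.0 CPM (76.7 to 91.8) in DOX plus AMH and 37.7 CPM (32.4 to 43.6) in DOX (log2 ratio 1.16, 0.91 to 1.41). Its thinned share of cells was 9.67% in DOX plus AMH and 4.60% in DOX. Stromal markers in that cluster summed to 3536 CPM in DOX plus AMH and 3361 CPM in DOX, and erythroid markers to 3144 CPM in DOX plus AMH and 15.7 CPM in DOX, whose part in the Sfrp2 value was not tested. Cluster 12 (Acta1, Tnni2, Pcp4) held 8 of 8 smooth muscle markers but stayed unnamed, because a pericyte marker stood among its top 10 genes. There Sfrp2 was 85.6 CPM in DOX plus AMH and 78.1 CPM in DOX (log2 ratio 0.13, -0.07 to 0.33). With doublets kept, the smooth muscle-like ratio was 0.47. In mesothelial-like cells Sfrp2 was 44.2 CPM in DOX plus AMH and 45.7 CPM in DOX, and the interval of the ratio (-0.42 to 0.33) spanned 0.

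Sfrp1 (ENSMUSG00000031548, chr8:23411502-23449632, plus strand), of the same family, was highest in other stromal clusters than Sfrp2, though clusters 6 and 15 read both. Over stromal-like cells it was 38.9 CPM in DOX plus AMH and 32.7 CPM in DOX (log2 ratio 0.25, 0.16 to 0.34). Cluster 16 had 180 CPM (168 to 192) in DOX plus AMH and 113 CPM (107 to 119) in DOX (log2 ratio 0.67, 0.55 to 0.79), and cluster 6 had 51.5 CPM in DOX plus AMH and 24.3 CPM in DOX (log2 ratio 1.08). Cluster 15 lay the other way, with 123 CPM in DOX plus AMH and 172 CPM in DOX (log2 ratio -0.49, -0.67 to -0.31). Clusters 2 and 7, the highest for Sfrp2, had at most 2.09 CPM in either library. With equal weight per cluster, the ratio of the class was 0.61. Squamous epithelial-like cells gave 35.9% of Sfrp1 UMIs in DOX plus AMH and 1.71% in DOX. Glial-like cells, 17 in DOX plus AMH and 11 in DOX and so not compared, read Sfrp1 at 486 CPM in DOX plus AMH and 1475 CPM in DOX.

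Sfrp4 (ENSMUSG00000021319, chr13:19623104-19632994, plus strand), another Frizzled-related protein, was 42.0 CPM in DOX plus AMH stromal-like cells and 47.7 CPM in DOX ones (log2 ratio -0.18, -0.27 to -0.10). Its ratio was below 0 in 7 of 8 stromal-like clusters, by small steps. Its highest level was in cluster 15, at 198 CPM in DOX plus AMH and 211 CPM in DOX (log2 ratio -0.09, -0.24 to 0.05). Cluster 16 had 66.0 CPM in DOX plus AMH and 81.7 CPM in DOX (log2 ratio -0.31, -0.49 to -0.13), and cluster 7 had 5.75 CPM in DOX plus AMH and 5.83 CPM in DOX. Over the whole of each library the ratio was -0.69, with 20.6 CPM in DOX plus AMH and 33.1 CPM in DOX, while stromal-like cells made up 54.0% of kept DOX plus AMH cells and 66.0% of kept DOX cells.

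**Figure D2:**
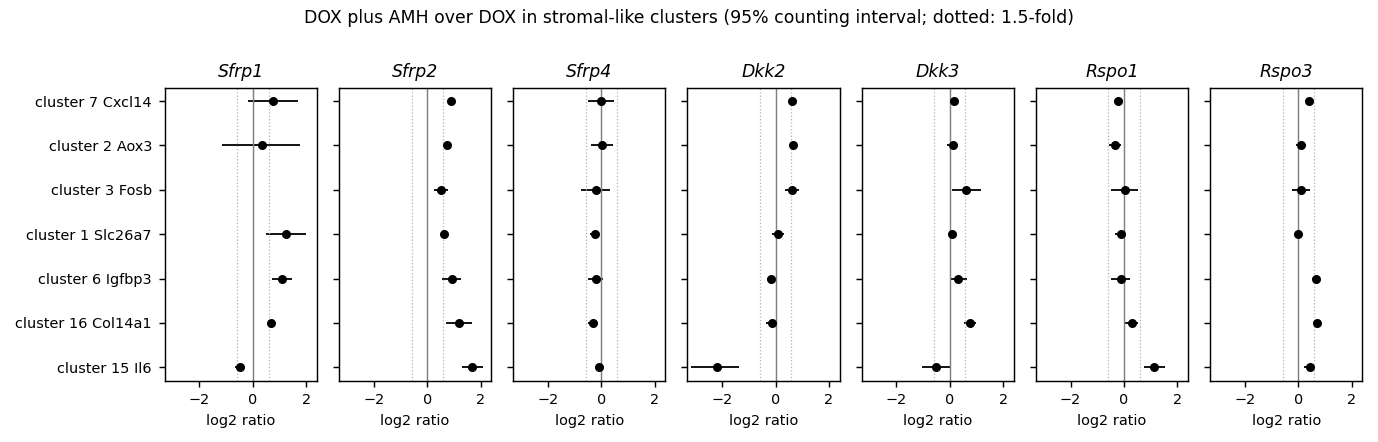
Log2 ratio of members, DOX plus AMH over DOX (x axis), in stromal-like clusters (y axis), with 95% counting intervals. Sfrp2 ran from 0.53 in cluster 3 to 1.68 in cluster 15, and Dkk2 from -2.20 in cluster 15 to 0.65 in cluster 2.

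Dkk2 (ENSMUSG00000028031, chr3:132085292-132180304, plus strand) binds Lrp5 and Lrp6 and can block canonical Wnt signalling. It was 182 CPM (178 to 186) in DOX plus AMH stromal-like cells and 122 CPM (120 to 125) in DOX ones (log2 ratio 0.57, 0.53 to 0.62), just short of 1.5-fold. Cluster 7, which alone gave 51.4% of Dkk2 UMIs in DOX plus AMH and 51.8% in DOX, had 455 CPM in DOX plus AMH and 294 CPM in DOX (log2 ratio 0.63, 0.57 to 0.69). Cluster 2 had 175 CPM in DOX plus AMH and 111 CPM in DOX (log2 ratio 0.65). Cluster 3 was higher too, but only 38 DOX plus AMH and 23 DOX cells had a UMI. The highest cell there held 104 UMIs in DOX plus AMH and 43 in DOX, and without those cells the ratio was 0.55. Of the 8 stromal-like clusters, 4 ratios were above 0, in clusters 1, 2, 3 and 7, and 4 below, in clusters 5, 6, 15 and 16. Cluster 1 had a ratio of 0.04 without the highest cell of each library. Cluster 6 had 262 CPM in DOX plus AMH and 298 CPM in DOX (log2 ratio -0.18, -0.31 to -0.05), and cluster 15 had 13 UMIs in DOX plus AMH and 127 in DOX (log2 ratio -2.20, -3.15 to -1.37). Equal weight per cluster gave the class a ratio of -0.08. Thinned shares of stromal-like cells were 12.5% (11.4 to 13.6) in DOX plus AMH and 11.5% (10.7 to 12.5) in DOX, and these intervals overlapped.

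Dkk2 was also read in endothelium and muscle. Vascular cluster 10 (Flt1, Pecam1) had 80.9 CPM (72.2 to 90.3) in DOX plus AMH and 44.7 CPM (35.7 to 55.3) in DOX (log2 ratio 0.86, 0.51 to 1.22), and 1 cell held 60 of the 314 DOX plus AMH UMIs. Stromal markers summed to 1513 CPM in DOX plus AMH and 3204 CPM in DOX there, and erythroid markers to 4346 CPM in DOX plus AMH and 24.7 CPM in DOX. Vascular cluster 28, of DOX alone, had 175 CPM, and with it the vascular ratio was -0.34. Stromal markers summed to 7545 CPM in cluster 28 and vascular markers to 1203 CPM, and their part in its Dkk2 value was not tested. In lymphatic endothelial-like cells Dkk2 was lower, with 2 UMIs in DOX plus AMH and 95 in DOX (log2 ratio -4.33, -7.40 to -2.44), and 71 of the DOX UMIs came from cluster 27, which had 1 DOX plus AMH cell and 41 DOX cells. Without cluster 27 the ratio was -2.87 (-5.99 to -0.85). It then rested on few cells, as Dkk2 UMIs of cluster 23 lay in 2 DOX plus AMH and 4 DOX cells. Of these, 1 DOX cell held 19 UMIs. Stromal markers summed to 6378 CPM in DOX cells of cluster 27 and 2087 CPM in those of cluster 23. Cluster 12 had 63.7 CPM in DOX plus AMH and 21.6 CPM in DOX (log2 ratio 1.56, 1.24 to 1.89). Cluster 13 had 47.1 CPM in DOX plus AMH and 31.3 CPM in DOX (log2 ratio 0.59, 0.30 to 0.89).

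Dkk3 (ENSMUSG00000030772, chr7:112116017-112159057, minus strand), a divergent member of the Dickkopf family, was 49.2 CPM in DOX plus AMH stromal-like cells and 41.6 CPM in DOX ones (log2 ratio 0.24, 0.16 to 0.32). TMM scaling gave 0.05. Its ratio was above 0 in 7 of 8 stromal-like clusters. Dkk3 in cluster 2 was 52.5 CPM in DOX plus AMH and 48.6 CPM in DOX. Without the highest cell of each library, the ratio was 0.59 in cluster 3 and -0.51 in cluster 15. Cluster 16 differed more, with 56.8 CPM in DOX plus AMH and 33.3 CPM in DOX (log2 ratio 0.77, 0.55 to 0.99). Squamous epithelial-like cells gave 22.6% of Dkk3 UMIs in DOX plus AMH.

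Rspo3 (ENSMUSG00000019880, chr10:29452416-29535867, minus strand), an R-spondin that raises Wnt responses, was highest in muscle. Cluster 12 had 1089 CPM in DOX plus AMH and 744 CPM in DOX (log2 ratio 0.55, 0.49 to 0.61), and its thinned share of cells was 86.2% (83.1 to 89.0) in DOX plus AMH and 65.7% (61.0 to 70.1) in DOX. Cluster 13 had 552 CPM in DOX plus AMH and 439 CPM in DOX (log2 ratio 0.33, 0.25 to 0.41), with thinned shares of 60.7% in DOX plus AMH and 49.6% in DOX. The shares did not overlap between groups in cluster 12 or cluster 13, and both ratios stayed under 1.5-fold. Unthinned shares were 98.1% in DOX plus AMH and 96.2% in DOX in cluster 12. TMM scaling gave 0.21 in cluster 13.

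In the stroma, Rspo3 was highest in clusters 6 and 16. Cluster 6 had 338 CPM in DOX plus AMH and 214 CPM in DOX (log2 ratio 0.66, 0.52 to 0.79), and cluster 16 had 325 CPM in DOX plus AMH and 200 CPM in DOX (log2 ratio 0.70, 0.61 to 0.79). Cluster 1 had 161 CPM in DOX plus AMH and 160 CPM in DOX, with an interval of the ratio from -0.08 to 0.09. Cluster 7 had only 48.2 CPM in DOX plus AMH and 36.3 CPM in DOX. Over the class Rspo3 was 146 CPM in DOX plus AMH and 110 CPM in DOX (log2 ratio 0.42, 0.37 to 0.47). Thinned shares were 22.6% in DOX plus AMH and 18.8% in DOX, whereas unthinned ones were 54.7% in DOX plus AMH and 59.7% in DOX, beside the greater depth of the DOX cells.

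**Figure D3:**
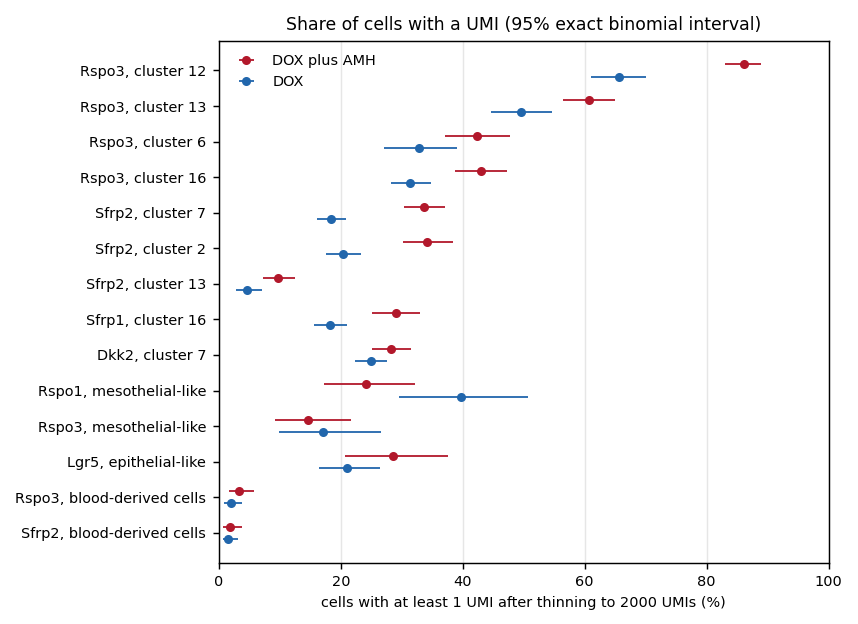
Share of cells with at least 1 UMI of a member after thinning to 2000 UMIs (x axis, percent) for pairs of a member and a cell group (y axis), with 95% exact binomial intervals. Rspo3 in cluster 12 had 86.2% in DOX plus AMH and 65.7% in DOX.

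Mesothelial-like cells (cluster 21, Upk3b and Msln), the lining of the outer uterine surface, had both R-spondins at lower levels in DOX plus AMH. Rspo1 (ENSMUSG00000028871, chr4:124986430-125009099, plus strand), which takes part in ovary development, was 141 CPM (128 to 154) in DOX plus AMH and 293 CPM (272 to 316) in DOX (log2 ratio -1.06, -1.23 to -0.89), over 138 DOX plus AMH and 88 DOX cells. Its thinned share was 24.1% (17.2 to 32.1) in DOX plus AMH and 39.8% (29.5 to 50.8) in DOX, so the levels did not overlap within counting error but the shares did. Rspo3 was 79.1 CPM (69.9 to 89.1) in DOX plus AMH and 149 CPM (134 to 166) in DOX (log2 ratio -0.92, -1.15 to -0.68). Sfrp1 was 10.8 CPM in DOX plus AMH and 23.5 CPM in DOX (log2 ratio -1.12, -1.76 to -0.49), and Sfrp4 had 9 UMIs in DOX plus AMH and 17 in DOX.

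These were the 4 of 8 members with 20 or more UMIs in mesothelial-like cells that were 1.5-fold or more lower, and 0 were higher, beside 16.9% of genes lower and 12.0% higher. The members' median was -0.52, beside -0.14 for those genes. Under TMM scaling the Rspo1 ratio was -0.91. Mesothelial markers summed to 2078 CPM in DOX plus AMH and 2781 CPM in DOX, with 7 of 7 present. Stromal markers summed to 10250 CPM in DOX plus AMH and 12930 CPM in DOX, smooth muscle markers to 416 CPM in DOX plus AMH and 1304 CPM in DOX, and squamous markers to 356 CPM in DOX plus AMH and 6.53 CPM in DOX. Dendritic markers summed to 2047 CPM in DOX plus AMH and 253 CPM in DOX, and macrophage markers to 31.9 CPM in DOX plus AMH and 224.5 CPM in DOX. The part of other cell types in the R-spondin values was not tested.

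Rspo1 over stromal-like cells was 38.7 CPM (36.8 to 40.7) in DOX plus AMH and 38.7 CPM (37.3 to 40.1) in DOX, and the interval of the log2 ratio ran from -0.09 to 0.09. The clusters split, with 4 ratios above 0 and 4 below. Cluster 15 had 42.9 CPM in DOX plus AMH and 19.5 CPM in DOX (log2 ratio 1.14, 0.76 to 1.52), and cluster 2 had 42.0 CPM in DOX plus AMH and 52.8 CPM in DOX (log2 ratio -0.33, -0.55 to -0.12).

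Lgr5 (ENSMUSG00000020140, chr10:115450311-115587780, minus strand), a receptor for R-spondins that marks epithelial stem cells in several tissues, lay in epithelial-like cluster 11, which gave 77.5% of its UMIs in DOX plus AMH and 80.1% in DOX. There it was 181 CPM (171 to 191) in DOX plus AMH and 151 CPM (144 to 157) in DOX (log2 ratio 0.26, 0.16 to 0.37), over 123 DOX plus AMH and 278 DOX cells. Thinned shares were 28.6% (20.7 to 37.6) in DOX plus AMH and 21.1% (16.4 to 26.4) in DOX and overlapped. Over the alternatives the ratio ran from 0.00 to 0.53. Cluster 24 (9030622O22Rik, Gkn3), with 24 DOX plus AMH and 71 DOX cells, had 183 CPM in DOX plus AMH and 145 CPM in DOX. Vascular cluster 28, of DOX alone, read Lgr5 at 82.5 CPM, with UMIs in 37 of 70 cells. Epithelial markers summed to 1610 CPM and vascular markers to 1203 CPM there. In DOX cells of vascular cluster 10 they summed to 23.1 CPM and 4100 CPM. The part of other cell types in the Lgr5 value of cluster 28 was not tested.

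Lgr5 in stromal-like cells was 2.36 CPM (1.91 to 2.89) in DOX plus AMH and 1.38 CPM (1.13 to 1.67) in DOX, on 95 UMIs in DOX plus AMH and 105 in DOX (log2 ratio 0.78, 0.36 to 1.19). Blood-derived cells read 0.713 CPM (0.147 to 2.08) in DOX plus AMH and 1.30 CPM (0.475 to 2.82) in DOX, so the DOX stromal-like level was at background. Over the alternatives the ratio ran from 0.43, under 1.5-fold, with a gate on each cell's own markers, to 4.34 with the blood-derived level subtracted.

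Notum (ENSMUSG00000042988, chr11:120653788-120661175, minus strand), the Wnt-inactivating hydrolase, was scarce, with 122 UMIs in kept DOX plus AMH cells and 90 in kept DOX cells. Stromal-like cells held 31 UMIs in DOX plus AMH and 13 in DOX, or 0.771 CPM (0.524 to 1.09) in DOX plus AMH and 0.171 CPM (0.0908 to 0.292) in DOX (log2 ratio 2.18, 1.20 to 3.24). Cluster 7 held 16 of them in DOX plus AMH and 2 in DOX. In blood-derived cells there was 1 UMI in DOX plus AMH and 0 in DOX. The highest level was in cluster 24, at 16.4 CPM (8.45 to 28.6) in DOX plus AMH and 11.1 CPM (6.32 to 18.0) in DOX, on 12 UMIs in DOX plus AMH and 16 in DOX.

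In smooth muscle-like cells, 2 of 8 members, Sfrp2 and Dkk2, were 1.5-fold or more higher and 0 lower, beside 15.1% of genes higher and 7.22% lower. Dkk2 stood just past 1.5-fold and was under it with TMM scaling (0.47), over nuclear genes without ribosomal protein genes (0.51) and with no cell filter (0.47). In epithelial-like cells 1 of 9 was higher (Dkk3) and 4 lower (Sfrp4, Dkk2, Rspo1 and Rspo3), beside 8.83% of genes higher and 8.61% lower. Levels of those 5 in epithelial-like cells were at most 12.8 CPM, under the blood-derived level of the same gene in the same library.

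The rest of the pathway was taken from lists of Wnt genes. Of 10 target genes with 20 or more UMIs in stromal-like cells, 1 was 1.5-fold or more higher and 1 lower. Of all genes with 20 or more UMIs there, 14.6% were higher and 5.66% lower. Lef1, a DNA-binding partner of beta-catenin, was 22.1 CPM in DOX plus AMH and 12.1 CPM in DOX (log2 ratio 0.87, 0.74 to 1.01). Ascl2, a transcription factor, was 0.994 CPM in DOX plus AMH and 1.73 CPM in DOX. Axin2, a feedback inhibitor that canonical Wnt signals induce, was 46.5 CPM in DOX plus AMH and 32.3 CPM in DOX (log2 ratio 0.52, 0.44 to 0.61). Nkd1, another feedback gene, was 29.5 CPM in DOX plus AMH and 26.2 CPM in DOX. Lef1 was highest in cluster 7 among clusters 1, 2 and 7, at 57.2 CPM in DOX plus AMH and 29.8 CPM in DOX. In smooth muscle-like cells, which are cluster 13 alone, 4 of 9 targets were higher and 1 lower, beside 15.1% of genes higher and 7.22% lower. Of the 4, Lef1 had 14 UMIs in DOX plus AMH and 6 in DOX, and Tcf7 had 18 and 7, with ratio intervals spanning 0. In cluster 12, 0 of 9 targets passed 1.5-fold either way, beside 11.8% of genes higher and 5.41% lower. In epithelial-like cells 0 of 9 targets were higher and 3 lower, beside 8.83% of genes higher and 8.61% lower.

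Among 20 receptors and co-receptors in stromal-like cells, 1 was higher and 2 were lower, beside 14.6% of genes higher and 5.66% lower. Fzd7, a Frizzled receptor, was 13.2 CPM in DOX plus AMH and 8.64 CPM in DOX (log2 ratio 0.62). Ror2, a Wnt5a receptor outside the canonical branch, was 84.8 CPM in DOX plus AMH and 130 CPM in DOX (log2 ratio -0.62, -0.67 to -0.56), and Lgr6 had 19 UMIs in DOX plus AMH and 58 in DOX. Ror2 was lower in muscle and epithelium too. It was 45.2 CPM in DOX plus AMH and 120 CPM in DOX smooth muscle-like cells (log2 ratio -1.40), and 66.3 CPM in DOX plus AMH and 151 CPM in DOX epithelial-like cells (log2 ratio -1.18). Of the genes that act with R-spondins, Lgr4 was 58.8 CPM in DOX plus AMH and 45.4 CPM in DOX epithelial-like cells (log2 ratio 0.37), and Znrf3 was 147 CPM in DOX plus AMH and 139 CPM in DOX ones.

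Of 7 Wnt ligands with 20 or more UMIs in smooth muscle-like cells, 4 were higher and 1 lower. Of all genes with 20 or more UMIs there, 15.1% were higher and 7.22% lower. Wnt5a was 61.1 CPM in DOX plus AMH and 23.6 CPM in DOX (log2 ratio 1.37, 1.06 to 1.69), but in cluster 12 it was 57.5 CPM in DOX plus AMH and 65.6 CPM in DOX. Wnt4, which the female reproductive tract needs to form, was 16.6 CPM in DOX plus AMH and 82.0 CPM in DOX smooth muscle-like cells (log2 ratio -2.30, -2.64 to -1.98). In cluster 12, 0 of 7 ligands passed 1.5-fold either way, beside 11.8% of genes higher and 5.41% lower. In stromal-like cells 2 of 11 ligands were higher and 0 lower, beside 14.6% of genes higher and 5.66% lower. Of the 2, Wnt9a was 25.6 CPM in DOX plus AMH and 16.1 CPM in DOX. Wnt11, the other, had 33 UMIs in DOX plus AMH and 38 in DOX. In epithelial-like cells 2 of 8 ligands were higher and 2 lower, beside 8.83% of genes higher and 8.61% lower. Wnt11 was higher in them (log2 ratio 1.04, 0.77 to 1.31), on 238 UMIs in DOX plus AMH and 236 in DOX. Wnt7a, needed for uterine patterning, was lower in epithelial-like cells, at 70.2 CPM in DOX plus AMH and 106 CPM in DOX (log2 ratio -0.60). Porcn, which attaches the lipid to Wnt proteins, was 72.2 CPM in DOX plus AMH and 118 CPM in DOX there. Of 7 other secreted modulators in stromal-like cells, 1 was higher and 0 lower, beside 14.6% of genes higher and 5.66% lower. It was Sostdc1, with 12 UMIs in DOX plus AMH and 8 in DOX. Of 14 genes of the secretion and intracellular chain 0 passed 1.5-fold in stromal-like cells.

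**Figure D4:**
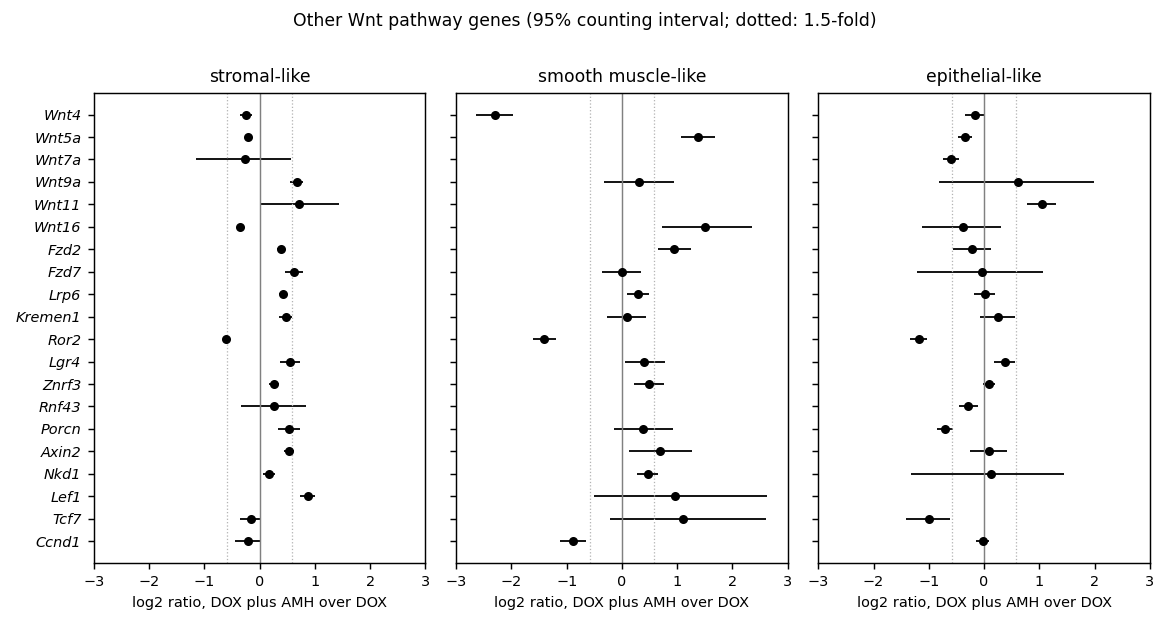
Log2 ratio, DOX plus AMH over DOX (x axis), of other Wnt pathway genes (y axis) in stromal-like, smooth muscle-like and epithelial-like cells, with 95% counting intervals. Ror2 lay at -0.62 in stromal-like, -1.40 in smooth muscle-like and -1.18 in epithelial-like cells.

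Genes whose levels ran most like each member were ranked by Pearson correlation of log2(CPM + 1) over the 26 clusters with at least 50 cells, among 13568 genes. Clusters share their libraries and depth, so the values are a description. Gm26771 and Gli1, a transcription factor of the hedgehog pathway, ran most like Sfrp2 (r = 0.95 and 0.92), and Fgf7, a growth factor for epithelium, most like Sfrp4 (r = 0.91). Art4 ran most like Sfrp1 (r = 0.85), Zbtb20 most like Dkk2 (r = 0.88) and Sorcs2 most like Dkk3 (r = 0.81). For Rspo1 it was Wt1 (r = 0.93), one of the mesothelial markers, and for Rspo3 Rprm (r = 0.94). Slc25a48 ran most like Lgr5 (r = 0.93) and Sbspon most like Notum (r = 0.79).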

How the data were processed

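The authors deposited 1 sparse matrix of raw UMI counts per library, made with Cell Ranger 7.0.0 on mm10, per the submitters' processing notes, from 10x Genomics 3' v3.1 libraries, per the labels' protocols. Whether intronic reads were counted is not given in the sources used here. The members and gene lists were chosen with earlier results of these data known. Barcodes needed 1000 UMIs, 500 genes and no more than 15% mitochondrial UMIs, which left 7065 in DOX plus AMH and 7783 in DOX. Of these, 320 in DOX plus AMH and 367 in DOX with a Scrublet score over 0.2 were removed as doublets. That score and the way markers were scored were set after the data were seen. Clustering (scanpy 1.11.5, 2000 variable genes without members or listed Wnt genes, 30 principal components, 15 neighbours, Leiden resolution 1) gave the clusters, named here from marker genes, so classes are not the authors' own. UMIs were summed per library and class to CPM with exact Poisson intervals. Log2 ratios have exact intervals from the binomial split, and shares have exact binomial ones. Ratios needed 20 UMIs, and a call is a size of 1.5-fold, not a test. The calculation was tested on simulated counts.

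The genes named are the members in every compared class and stromal-like cluster with at least 50 cells per library, up to 3 highest and 3 lowest genes of each list past 1.5-fold with 2 CPM or more in 3 classes, fixed genes such as Axin2, and the 3 genes most like each member, of which some are printed. Values in clusters 5, 10, 12, 23, 24, 27 and 28, in squamous and glial-like cells, and of Ascl2, Lgr6, Wnt11 and Sostdc1 in stromal-like cells were added after they were seen. Positions follow GENCODE M21 and promoters RefSeq, which held 3 of the 9 members. Alternatives covered cell filters, doublets, resolution, a gate on each cell's markers, TMM scaling (edgeR 4.0.16) and weights.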

Additional observations from a re-analysis of the deposited data

Results flagged for a closer look

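For 3 members, a stromal-like cluster and mesothelial-like cluster 21 lay past 1.5-fold in opposite directions between DOX plus AMH and DOX. With 1 library per group these differences between clusters were not tested. The stromal-like cluster was a different one for each member. Of all genes with 20 or more UMIs, 16.9% were lower in cluster 21. Higher genes made up 15.7% in cluster 6, 15.7% in cluster 16 and 1897 of 12668 in cluster 15. The share of all genes opposite in such a pair was not computed. Whether the pattern is particular to these members was therefore not tested.

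Sfrp1 had a log2 ratio of 1.08 in cluster 6, on 185 UMIs in DOX plus AMH and 85 in DOX, and of -1.12 in cluster 21, on 37 UMIs in DOX plus AMH and 54 in DOX. Rspo1 had 1.14 in cluster 15, on 119 UMIs in DOX plus AMH and 115 in DOX, and -1.06 in cluster 21, on 480 UMIs in DOX plus AMH and 674 in DOX. Rspo3 had 0.70 in cluster 16, on 1732 UMIs in DOX plus AMH and 2225 in DOX, and -0.92 in cluster 21, on 270 UMIs in DOX plus AMH and 343 in DOX. The highest Rspo3 cell of cluster 21 held 49 UMIs in DOX plus AMH and 31 in DOX, and without those cells the ratio was -1.08.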

How the results depend on the processing

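No paired analysis was possible because each group is 1 library, and for the same reason no replicate could be left out. Members 1.5-fold or more higher in stromal-like cells numbered 3 under 10 alternatives and 4 with equal weight per cluster or with the blood-derived level subtracted, and 0 were lower under the 12. Of the log2 ratios recomputed under alternatives, 551 stayed within counting error of the reported one, 75 moved further and 6, past 1.5-fold as reported, changed sign. Counting ratios of any size, 60 changed sign. Dkk2 in pericyte-like cells (1.25) was -1.88 with no cell filter, -2.79 at Leiden resolution 0.5 and -2.17 with the gate on each cell's own markers. Rspo3 was -0.36 in pericyte-like cells at resolution 0.5 (0.81) and -0.18 in dendritic-like cells with no cell filter (2.304). Sfrp2 in macrophage or monocyte-like cells was -0.32 with no cell filter (0.91). The causes were not tested. In stromal-like cells Sfrp2 ran from 0.62 to 0.93, Rspo3 from 0.23 to 0.51 and Dkk2 from -0.08 to 0.65, and mesothelial-like Rspo1 from -1.07 to -0.91. The gate gave 76.5% of cells the class of their cluster, and 14.4% lay near its cut. Depth limits Notum and stromal-like Lgr5.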
